A study of Brassica napus with 17 samples.

Results

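Heat-only microspore cultures of day 2 were compared with freshly isolated microspores of day 0 in Brassica napus, oilseed rape. The comparison takes 6 of the 17 libraries of the study, chosen by their titles: 3 of heat-only day 2 and 3 of day 0. All cultures came from the doubled haploid line DH12075 and carried LEC1-GFP, a green fluorescent reporter for the embryo regulator LEC1. Day 0 microspores were in the late unicellular stage, before the first pollen division, and were untreated, although their titles call them pollen. The day 2 cultures received 24 hours at 33 °C and then 1 day at 25 °C, and the labels describe them as a mixture of microspores and embryogenic cells.

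The other libraries serve here only to show where genes of this comparison stood elsewhere. They are 3 heat-only cultures of day 4 and cultures whose heat treatment included trichostatin A (TSA), which blocks histone deacetylases. Of the TSA cultures, 3 were of day 2 (0.5 µM), 3 of day 4 and 2 of day 8 (0.05 µM). For day 4 the titles give 0.5 µM and the treatment field gives 0.05 µM.

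In undisturbed anthers a unicellular microspore divides unequally and becomes pollen. In culture, a heat treatment turns part of the microspores of B. napus to cell division and embryo formation, while the rest die, arrest or go on towards pollen. Each library is therefore an average over cells on different paths, and fewer cells of a type cannot be told apart from less RNA per cell. No culture without heat is among the 6 groups, so the effect of heat and that of 2 days outside the anther cannot be told apart. The deposited tables do not pair gene IDs with functions, and the reference gave no descriptions. The mixture of cell types in the labels was therefore not checked against marker genes, and the genes below are described by ID, level and subgenome. B. napus is an allotetraploid with an A and a C subgenome, which the IDs show.

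Sequencing depth was uneven at day 0, with total counts of 27496445, 20851018 and 2716279 for replicates 1 to 3. The heat-only day 2 libraries held 17845967, 28680600 and 24998765 counts. Levels are counts per 1000000 (CPM) with TMM-scaled library sizes and are not divided by gene length, so order among genes refers to reads and not to molecules. A count of 3 stood for 0.0809, 0.108 and 0.787 CPM at day 0 and for 0.223, 0.122 and 0.137 CPM at heat-only day 2. Across genes, which are not independent replicates, log2 CPM of the day 0 libraries correlated at 0.968 to 0.993 with each other. Heat-only replicates 2 and 3 correlated at 0.991, and replicate 1 correlated with them at 0.969 and 0.967. Between the groups the correlations were 0.721 to 0.766. Heat-only replicate 1 stood apart within its group in evenness and in 6 chromosome blocks described below. Total calls and the numbers of switched genes are given with and without it, and other counts include it unless stated. The day 0 libraries are labelled with a named sequencing run and the heat-only libraries with none, so run and group cannot be told apart.

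Between the fresh microspores and the heated cultures genes moved in both directions in large numbers, and with TMM scaling large changes were mostly rises. Of 64330 genes tested, 19992 (31.1%) were called higher at heat-only day 2 and 16302 (25.3%) lower, which together were 56.4% (edgeR quasi-likelihood test, Benjamini-Hochberg adjusted p under 0.05). Without heat-only replicate 1 the numbers were 19717 and 13729. Which direction held more calls turned with the scaling: there were 17241 higher and 20738 lower by the upper quartile, and 12721 and 27716 by library totals. By at least 1 log2 unit, 16025 genes (24.9%) were higher and 11028 (17.1%) lower under TMM. This majority turned too, to 13960 higher and 14360 lower by the upper quartile, and 11028 and 22218 by library totals. Larger sizes were counted under TMM alone, where the gap widened with the size of the change. There 8015 genes were higher and 1895 lower by at least 3 log2 units, 4376 and 259 by at least 5, and 2217 and 32 by at least 7. Fitted changes of genes with no count in one group depend on the prior count of the fit. With ratios of mean CPM in which no mean was taken under 3 counts over its group, 7232 genes called higher and 1645 called lower passed 3 log2 units, 3324 and 131 passed 5, and 1569 and 11 passed 7. The libraries of the 2 groups did not overlap for 19422 of the genes called higher (97.15%) and 15085 of those called lower (92.53%). Calls and overlap come from the same values, and the share over all tested genes was not computed. The 2 shares are therefore a description and no separate support for the calls.

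Levels of well-measured genes describe the 2 directions further. Each set below was chosen through the group where its genes were high, so the medians are a description and not a comparison. Among the 9206 genes called higher that reached 10 CPM at heat-only day 2, the median rise was 1.57 log2 units, to 296.4% of the day 0 level. The upper quartile of these genes stood at 1474% of day 0. With means held at the 3-count level the median was 1.58 log2 units. Among the 6957 genes called lower that had 10 CPM at day 0, the median gene kept 49.3% of its level, and the lower quartile kept 33.0%. Over all 64330 genes the median change was 0.07 log2 units, with quartiles of -0.81 and 1.41.

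Of the 28036 genes not called, 10700 (38.2%) had a 95% interval of the log2 fold change that lay within -1 to 1. For these a change of more than 1 log2 unit is outside the interval. For the other uncalled genes the data do not settle whether the level moved by that much. Among them, 1024 genes had no count in any of the 6 libraries and so have no interval. Another 2591 genes were called with an interval inside the same limits, so 13291 genes (20.7% of those tested) were bounded in this way. The split of directions depends on the assumption behind the scaling. Genes called higher made up 55.1% of calls under TMM. Scaling by the upper quartile gave 45.4% and a median change of all genes of -0.11 log2 units. Scaling by library totals gave 31.5% and a median of -0.57.

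The pool of RNA became more concentrated in few genes. The 100 most abundant genes of each library held 7.59%, 7.79% and 9.45% of counts at day 0 and 27.2%, 20.7% and 20.5% at heat-only day 2. All 3 cultured libraries lay above all 3 fresh ones, with means of 8.28% ± 1.02 and 22.8% ± 3.83 (SD, n = 3 each). At day 0 3713, 3704 and 3204 genes were needed to hold 50% of counts, and at heat-only day 2 1154, 1796 and 1865. The groups again did not overlap, at 3540 ± 291 against 1605 ± 392 genes (SD, n = 3 each). Both differences, of 14.5 percentage points and of -1935 genes, gave an exact two-sided permutation p of 0.1, the smallest that 3 against 3 libraries allow. Heat-only replicate 1 was the most uneven library of the 6. Without one library at a time the differences ranged from 12.3 to 15.7 percentage points and from -2104 to -1710 genes.

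**Figure D1:**
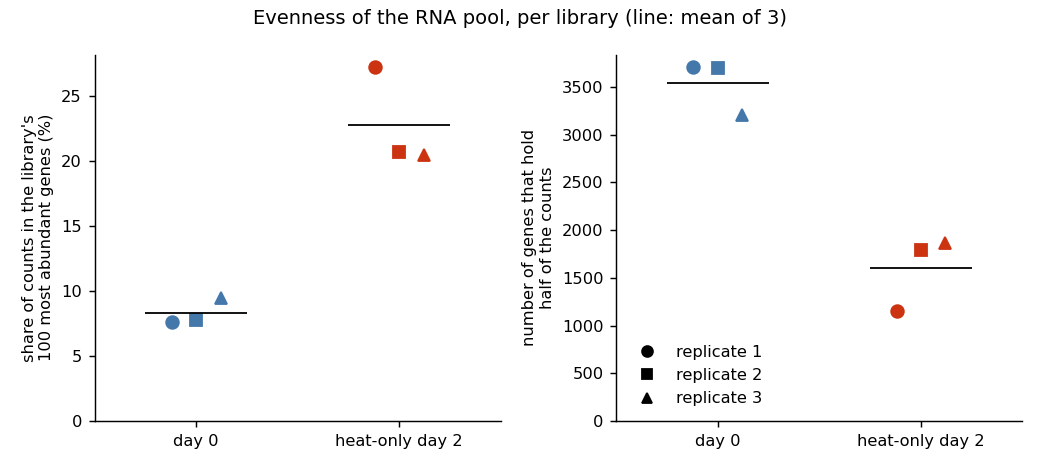
Left, share of counts (%) in the 100 most abundant genes of each library; right, number of genes that together hold 50% of counts. Points are libraries, with replicates by shape, and lines are means of 3; the heat-only day 2 libraries lie at 20.5% to 27.2% and 1154 to 1865 genes, and the day 0 libraries at 7.59% to 9.45% and 3204 to 3713 genes.

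The concentration was visible at the very top of the range. The single most abundant gene took 0.195%, 0.195% and 0.269% of counts at day 0 and 1.18%, 0.982% and 1.01% at heat-only day 2. The 10 most abundant took 1.53%, 1.60% and 2.10% at day 0 and 8.71%, 6.46% and 6.36% after culture. By group means, 9 genes were at 1000 CPM or more at day 0 and 91 at heat-only day 2. Of these 91, 35 had been between 10 and 100 CPM at day 0, 21 between 1 and 10 CPM and 20 between 0.1 and 1 CPM. A further 13 had been between 100 and 1000 CPM, and 2 were already at 1000 CPM or more. In the other direction, 7 of the 9 genes at 1000 CPM or more at day 0 moved to between 100 and 1000 CPM. Of the 997 genes between 100 and 1000 CPM at day 0, 413 fell into the class of 10 to 100 CPM, 33 into that of 1 to 10 CPM and 2 into that of 0.1 to 1 CPM.

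**Figure D2:**
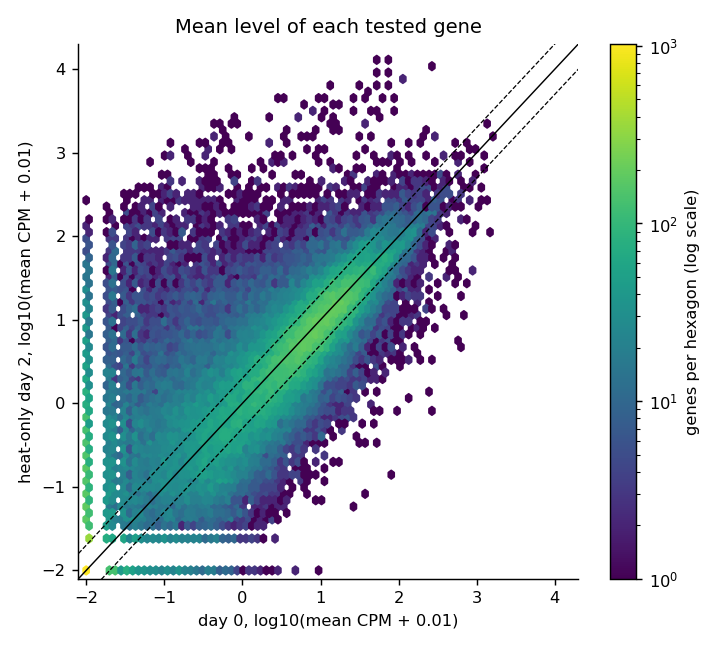
Mean level of each of the 64330 tested genes at day 0 (horizontal) and heat-only day 2 (vertical), as log10 of mean CPM plus 0.01; colour gives genes per hexagon on a log scale, the solid line is equality and the dashed lines a change of 1 log2 unit. The cloud extends far above the line for genes under 100 CPM at day 0, and less at the top. Of the 9 genes at 1000 CPM or more at day 0, which is the highest class, 7 moved to a lower class. Among the 9, BnaA10g14780D rose from a mean of 1343 to 2425 CPM.

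The most abundant genes of the 2 groups were nearly separate lists. The 100 most abundant genes of day 0 replicate 1 held 7.78% and 9.36% of counts in the other day 0 libraries, and 2.48%, 3.20% and 3.16% at heat-only day 2. Of these, 60 were called lower and 6 higher, against 25.3% and 31.1% of all tested genes. The 100 most abundant genes of heat-only replicate 1 held 20.4% and 20.1% in heat-only replicates 2 and 3, and 1.03%, 1.07% and 1.28% at day 0. Of these, 98 were called higher and 0 lower. Each list was chosen by abundance in one of the libraries compared, so these counts are a description. The 2 lists shared 5 genes. In heat-only cultures of day 4 the second list held 36.0%, 33.9% and 35.1% of counts. With TSA at day 2 it held 0.612%, 0.575% and 1.10%, and in 2 of these 3 libraries that is below its share in any day 0 library.

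The gene with the highest level at heat-only day 2 was BnaC01g39610D. Its level was 68.7, 78.6 and 88.6 CPM in the day 0 libraries and 15740, 11457 and 11478 CPM at heat-only day 2. The change was 7.36 ± 0.99 log2 units (SE), with an adjusted p of 9.1e-06 (edgeR quasi-likelihood test). It went on to 30224 ± 5163 CPM in heat-only day 4 (SD, n = 3) and was at 120 CPM with TSA at day 2. The 5 genes with the highest levels at that time had means of 8484 to 12892 CPM there and of 50.2 to 276.7 CPM at day 0, and each was called higher, by 5.27 to 7.88 log2 units. Replicate 1 was the highest of the 3 cultured libraries for each of the 5.

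The largest called rises started from levels near the limit of detection. A mean of at least 50 CPM in the higher group, at least 10 counts over the lower group and no overlap of libraries were required, which 2386 rising genes met. The 8 with the largest fitted change rose by 11.8 to 12.7 log2 units, from means of 0.111 to 0.657 CPM to means of 792 to 2369 CPM. BnaA05g25900D was at 0.081, 0.251 and 0 CPM at day 0 and at 1378, 821 and 805 CPM at heat-only day 2. The groups are far apart, and the change was 12.69 ± 1.30 log2 units (SE, adjusted p = 8.6e-07, edgeR). BnaA02g15620D went from 0.027, 0.287 and 0.262 CPM to 1265, 580 and 530 CPM, a change of 12.29 ± 1.04 (SE, adjusted p = 1.1e-07, edgeR). The day 0 values of both genes rest on few reads, so the size of the fold is much less certain than its direction. Replicate 1 was again the highest cultured library in all 8 genes. In BnaA05g25900D and BnaA02g15620D it was above 1000 CPM while the other cultured libraries were not. At heat-only day 4 the 8 genes were at 2493 to 10269 CPM, and with TSA at day 2 at 0.529 to 8.12 CPM.

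The falls named by the same conditions covered fewer log2 units than the rises. The conditions keep out genes that left detection: 202 genes without a count at heat-only day 2 were called lower, and 2068 without a count at day 0 were called higher. They were met by 1485 falling genes, and the 8 with the largest change fell from means of 53.8 to 647.5 CPM to means of 0.328 to 6.03 CPM. BnaA05g24100D was at 255, 235 and 286 CPM at day 0 and at 0.745, 0.651 and 0.956 CPM at heat-only day 2. Its change was -8.35 ± 0.70 log2 units (SE, adjusted p = 1.1e-07, edgeR). BnaC05g37800D was at 266, 258 and 251 CPM at day 0 and at 1.56, 1.10 and 1.41 CPM after culture, a change of -7.59 ± 0.67 (SE, adjusted p = 1.8e-07, edgeR). Replicates within each group were close for both genes. Both were also low in every other group, with means of 2.52 and 7.91 CPM in heat-only day 4 and of 3.84 and 4.42 CPM with TSA at day 2. Of the 8 falling genes, 5 were lowest in replicate 1 of the cultured libraries.

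The most abundant gene of day 0, BnaCnng38780D, was at 1450, 1463 and 1915 CPM there and at 1293, 1453 and 1432 CPM at heat-only day 2. The ranges overlap at 1450 to 1453 CPM, and the change of -0.21 log2 units had a 95% interval of -0.71 to 0.29 (adjusted p = 0.468, edgeR). A fall of more than 0.71 log2 units is outside this interval. With library totals alone in place of TMM the change was -0.92, and the gene was then called lower (adjusted p = 0.002, edgeR). Of the 5 most abundant genes of day 0, which had means of 1260 to 1609 CPM, 3 were called lower and 1 higher. The one called higher, BnaA10g14780D, changed by 0.85 ± 0.32 log2 units (SE, adjusted p = 0.032, edgeR). It was no longer called with upper-quartile factors (adjusted p = 0.135), with library totals (0.745, at 0.14 log2 units), without any single day 0 library (0.0625 to 0.103), or without heat-only replicate 2 (0.0664).

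Only 2 of the gene IDs carried another name in the reference. KCP1 (BnaA02g32290D), described in B. napus as a protein that binds a histone deacetylase, was at 2.10, 1.58 and 1.05 CPM at day 0. In heat-only day 2 it was at 0.149, 0.163 and 0.182 CPM, in every library below all day 0 values. The change was -3.32 ± 0.39 log2 units (SE, adjusted p = 2.0e-06, edgeR), but the cultured levels are close to what 3 counts give, so its size is uncertain. With TSA at day 2 KCP1 stood at 1.77, 1.78 and 2.04 CPM, all inside its range at day 0. TR1 (BnaCnng15100D) was at 7.88, 8.58 and 5.25 CPM at day 0 and at 12.1, 8.26 and 9.66 CPM after heat. The groups overlap, and the change of 0.40 log2 units had a 95% interval of -0.08 to 0.88 (adjusted p = 0.146, edgeR). A rise of more than 0.88 log2 units is outside this interval, and with library totals alone the estimate turned to -0.31 (adjusted p = 0.169).

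**Figure D3:**
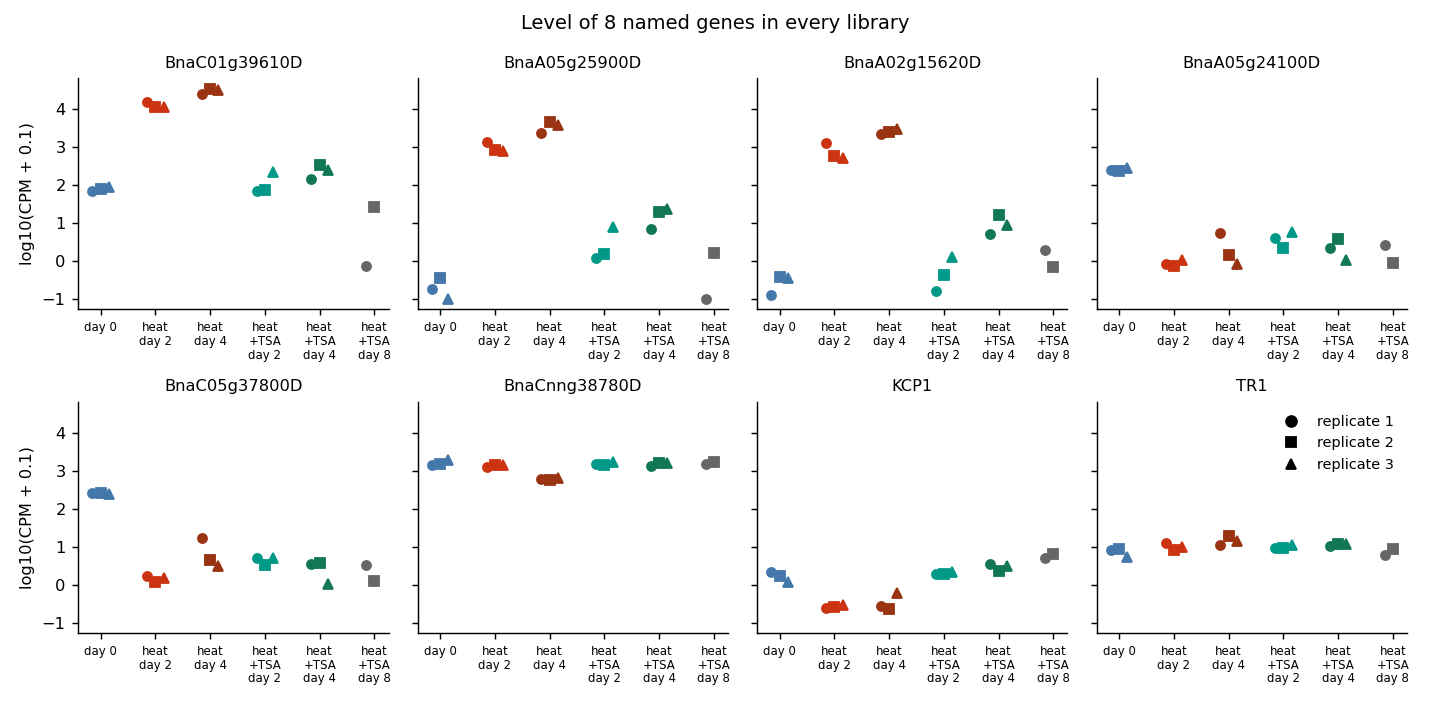
Level of 8 genes in all 17 libraries, as log10 of CPM plus 0.1, with groups along the horizontal axis and replicates by shape. BnaC01g39610D, BnaA05g25900D and BnaA02g15620D are high in heat-only cultures alone among these groups, BnaA05g24100D and BnaC05g37800D are at 235 to 286 CPM at day 0 and at 16.4 CPM or less elsewhere, and BnaCnng38780D is at 575 to 629 CPM in heat-only day 4 and at 1293 CPM or more in every other group, and TR1 runs from 5.25 to 18.7 CPM.

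Many genes went from near or below detection to a clear level, and few went the other way. Switched on means here that a gene was called with a mean of at least 1 CPM at heat-only day 2 and under 0.1 CPM at day 0, and switched off means the reverse. By this rule 2640 genes (4.1% of those tested) were switched on and 199 (0.309%) switched off. The limit of 0.1 CPM is near or under the level of 3 counts in single libraries, while 3 counts over all libraries of a group stand for 0.0437 CPM at day 0 and 0.0500 CPM at heat-only day 2. With limits of 0.2 and 0.05 CPM the numbers were 3452 and 2049 on, and 518 and 79 off. Without heat-only replicate 1 they were 2611 on and 186 off.

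The genes switched on reached substantial levels. Their median was 0.027, 0.036 and 0 CPM in the day 0 libraries and 5.14, 3.82 and 4.10 CPM at heat-only day 2, where 861 of them were at 10 CPM or more. Together they took 0.0118%, 0.0158% and 0.0018% of counts at day 0 and 5.49%, 3.78% and 3.97% in the cultures. In 123 genes the mean went from under 0.1 CPM to between 100 and 1000 CPM. Among all tested genes 4511 had no count in any day 0 library, and 2068 of these were called higher. Of those, 33 stood at 50 CPM or more at heat-only day 2. The highest reached 268.4 CPM, at least 6150-fold higher than 3 counts over the day 0 libraries. By contrast, the 199 genes switched off were of low level to begin with: their medians were 1.67, 1.62 and 1.57 CPM in the day 0 libraries, and only 3 had a mean of 10 CPM or more there.

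Most genes that were on by day 2 stood higher still at day 4. In heat-only day 4 the median of the 2640 genes was 15.7 CPM, 2533 of them (96.0%) were at 1 CPM or more, and 1577 were at 10 CPM or more. The mean at day 4 was above that at day 2 for 2341 of them (88.7%), against 48.6% of all tested genes. In cultures that had TSA with the same heat, the median was 0.156 CPM at day 2, 0.424 CPM at day 4 and 0.0573 CPM at day 8. With TSA at day 2, 779 of the genes (29.5%) had at least 1 CPM and 1154 (43.7%) less than 0.1 CPM. All of the set were chosen to be under 0.1 CPM at day 0. Of all tested genes, 60.9% were at 1 CPM or more at day 0 and 71.0% with TSA at day 2, so they are no baseline for the set. By summed counts the 2 kinds of culture were closer: the set held 3.15% ± 0.16 of counts with TSA at day 2 and 4.41% ± 0.93 at heat-only day 2 (SD, n = 3 each). The comparison of the TSA libraries with day 0 would share the day 0 libraries with that of heat alone, so the levels are given side by side without a test.

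The 199 genes switched off stayed low in heat-only day 4. Their median there was 0.0826 CPM, under the 0.119 CPM that 3 counts over that group stand for. There 197 of them were below their day 0 mean, which the choice of the set by its day 0 level favours. Only 3 were at 1 CPM or more, against 40 (20.1%) with TSA at day 2, 45 (22.6%) with TSA at day 4 and 43 (21.6%) with TSA at day 8. All of the set were chosen to be under 0.1 CPM in heat-only day 2, and no TSA library took part in the choice. Of all tested genes, 68.8% were at 1 CPM or more in heat-only day 4 and 71.0% with TSA at day 2, so they are no baseline for the set. These levels are given without a test.

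**Figure D4:**
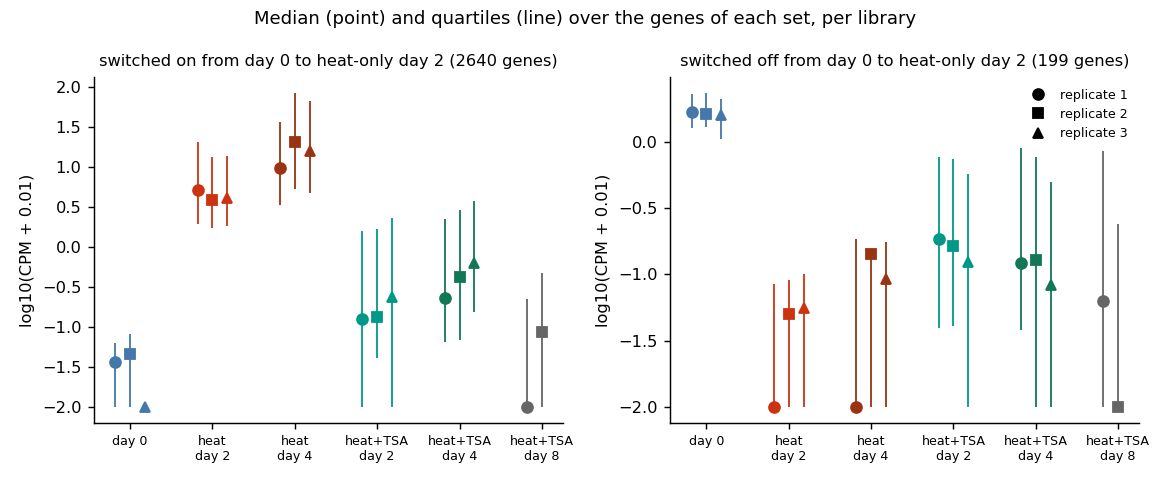
Level of the 2640 genes switched on (left) and the 199 switched off (right) in every library, as log10 of CPM plus 0.01; points are medians over genes, lines run from the lower to the upper quartile, and replicates differ by shape. Day 0 and heat-only day 2 chose the genes; in heat-only day 4 the median of the switched-on genes rises to 15.7 CPM, and with TSA at day 2 it is 0.156 CPM.

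The sets of all genes that changed by at least 1 log2 unit were followed in the same way. The 16025 genes higher by at least 1 log2 unit held 10.1% ± 0.10 of counts at day 0, 57.4% ± 4.57 at heat-only day 2 and 78.7% ± 3.55 at heat-only day 4 (SD, n = 3 each). Their share with TSA was 29.7% at day 2, 34.7% at day 4 and 19.1% at day 8. The 11028 genes lower by as much held 24.7% ± 0.57 of counts at day 0 and 4.18% ± 0.53 at heat-only day 2 (SD, n = 3 each). Their share was 2.04% in heat-only day 4, and with TSA it was 12.2% at day 2, 10.8% at day 4 and 16.02% at day 8. The sets were chosen on the first 2 groups, so the values there are a description, and those of the other 4 groups are levels without a test.

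Changes were spread over both subgenomes and every chromosome. Of the tested genes of the A subgenome 30.55% were called higher and 26.55% lower, and of the C subgenome 31.56% and 24.26%. By chromosome, the share called higher ran from 28.8% on A10 to 32.9% on C4, and the share called lower from 20.8% on C4 to 29.3% on A8. The start and the distal part of C4 hold blocks, described below, in which heat-only replicate 1 differed from replicates 2 and 3. In the windows that define these blocks 9.17% and 15.9% of tested genes were called lower, so the low share called lower on C4 partly rests on them. The shares called higher there were 35.0% and 30.6%, on both sides of that of C4. Genes switched on made up between 3.08% of tested genes on A10 and 5.76% on A4. In 1904 windows of 30 genes in the order of the IDs, the median number called higher was 9, with a range of 2 to 18. Across genes, the changes of direct neighbours correlated at 0.082 over 57368 pairs and those of genes 10 positions apart at 0.004. These are descriptions without a test, since neighbouring genes share libraries and may share reads.

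The balance of the subgenomes moved by about 1 percentage point. The A subgenome supplied 49.35%, 49.38% and 49.59% of the counts of A and C gene IDs at day 0 and 48.86%, 47.94% and 47.89% at heat-only day 2. Every cultured library was below every fresh one, by 1.21 percentage points on average (exact two-sided permutation p = 0.1, the smallest possible). This difference depended on few genes: without the 10 most abundant genes of each library it was -0.46 percentage points, with an exact two-sided permutation p of 0.4, so the groups then overlapped. With all genes, replicate 1 was closer to day 0 than the other two cultured libraries were. The 6 chromosome blocks described next hold 4068 IDs from their first to their last gene. Without these IDs the shares were 48.79%, 48.61% and 48.56% in the cultures and 49.69%, 49.72% and 49.92% at day 0. The difference was then 1.12 percentage points lower in culture (48.65% ± 0.12 against 49.78% ± 0.13, SD, n = 3 each), with the same exact permutation p of 0.1. The blocks were chosen where replicate 1 differed from the other cultured libraries, so a small SD in culture is favoured by that choice.

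Heat-only replicate 1 departed from replicates 2 and 3 over whole chromosome segments. Windows of 30 genes with a mean of at least 1 CPM over the 17 libraries were compared, and 49 of 1474 had a median difference of more than 0.4 log2 units between replicate 1 and the mean of the other two. Of these, 48 lay in 6 blocks of nearby windows with the same sign, 39 lower and 9 higher in replicate 1. A block could also span windows that did not pass. At the start of A5, 9 of the windows 1 to 12 passed, and in C2 16 of the windows 42 to 61. Between replicates 2 and 3 the largest window median was 0.16 log2 units, and between day 0 replicates 1 and 2 it was 0.13. Day 0 replicate 3, the shallow library, differed from the other two by up to 0.60 in single windows. There 34 windows passed the same limit, all lower in replicate 3, with at most 2 neighbouring windows in a row, against 15 in a row in heat-only replicate 1. The block at the start of C4 had a median difference of -1.55 log2 units, that in the distal part of C2 -0.92, that inside C7 -0.97 and that in the distal part of C4 -0.88. At the start of A7 it was -0.63, and at the start of A5 genes of replicate 1 were higher, by 0.52. In heat-only day 4, which was not used to find the blocks, replicate 1 differed from replicates 2 and 3 in the same direction in all 48 windows. The medians there were -1.61 at the start of C4, -0.94 in C2 and 0.58 at the start of A5. The labels do not say which plants each culture came from, and the cause was not tested.

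**Figure D5:**
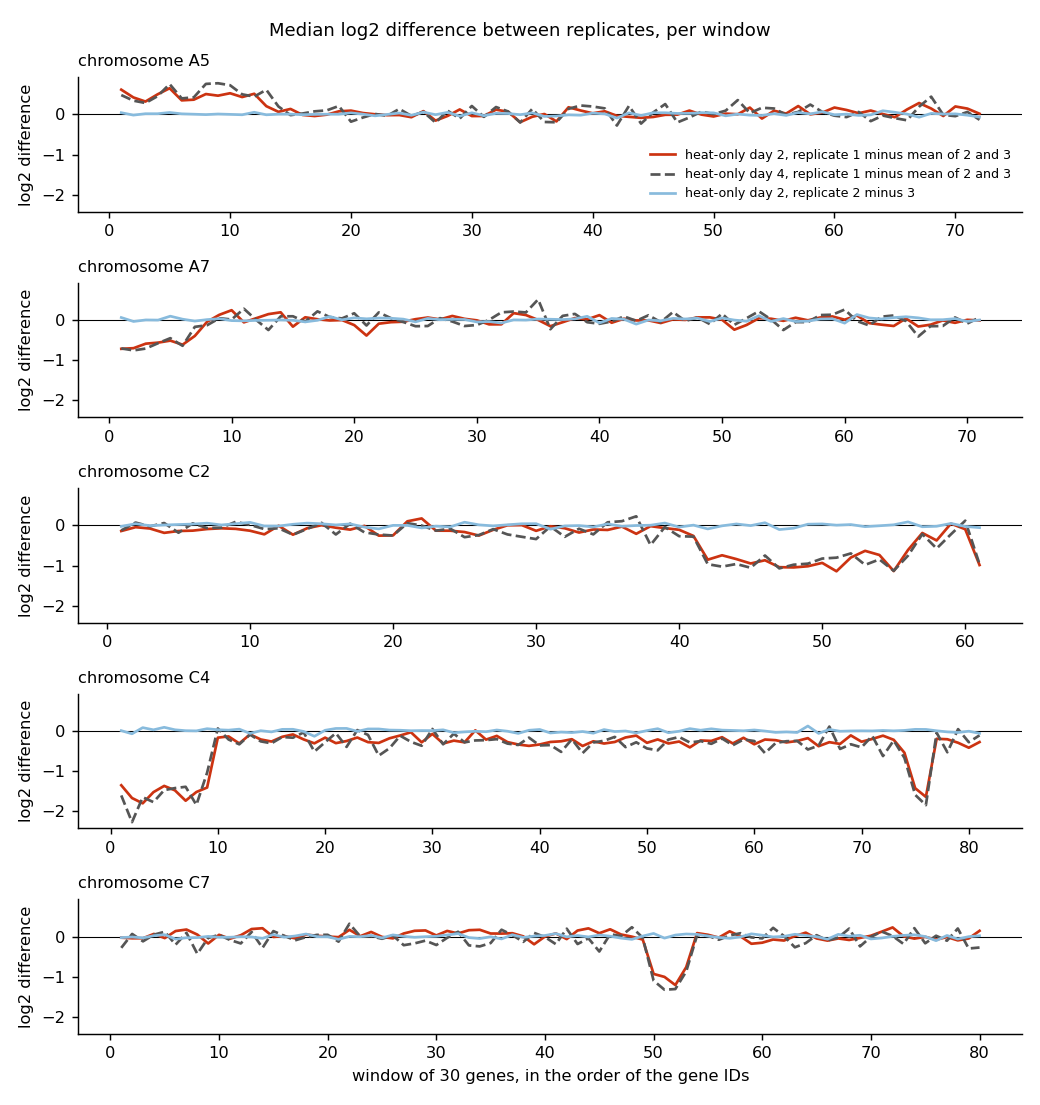
Median log2 difference (CPM plus 0.1) per window of 30 genes along 5 chromosomes, in the order of the gene IDs, for heat-only day 2 replicate 1 minus the mean of 2 and 3 (solid red), the same in day 4 (dashed) and day 2 replicate 2 minus 3 (light blue). The first windows of C4 lie near -1.55 and those of A5 near 0.52, and the day 4 line follows the day 2 line in these blocks.

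Within the blocks the comparison with day 0 depends on which heat-only library is read. At the start of C4 the median log2 difference from day 0 was -0.35 in replicate 1, 1.13 in replicate 2 and 1.09 in replicate 3. Over all placed genes these medians were 0.10, 0.14 and 0.14. Of 360 tested genes in that block, 126 (35.0%) were called higher and 33 (9.17%) lower with all libraries, against 31.1% and 25.3% of all tested genes. Without replicate 1, 169 (46.9%) were called higher and 24 (6.67%) lower, where 30.5% and 21.2% of all tested genes were. With replicate 1 as the only cultured library the block had 60 (16.7%) higher and 59 (16.4%) lower, where 22.9% and 14.9% of all tested genes were. The windows past the limit in the blocks held 1936 tested genes, 3.01% of all, so they bear little on the totals: outside them 19363 genes were called higher and 15961 lower. Replicate 1 also stood higher among the genes switched on, where it was the highest of the 3 libraries for 1717 of 2640 genes (65.0%), against 39.2% of all tested genes.

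The calls overlapped widely with those of the authors. In the authors' deposited table, of 68491 genes, 36711 had a false discovery rate under 0.05 for this comparison, 21204 higher and 15507 lower. Of the calls made here, 92.6% were called in the same direction in the authors' deposited table and 0 in the opposite one. The log2 fold changes of that table correlated with those here at 0.978 across 63481 genes, and both come from the same libraries.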

How the data were processed

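RNA of 17 samples of fresh or cultured microspores was made into TruSeq libraries after DNase treatment, per the labels' protocols. The authors deposited raw counts per gene ID, per the file headers. Not given in the sources used here are the aligner, counter, strand setting, build and annotation, so reads shared by near-identical A and C copies or by overlapping genes make single-gene levels uncertain. The authors' deposited log2 fold changes and adjusted p-values for this comparison, for which the submitters' processing notes name limma, were used only beside the results. Count columns were matched to samples by title.

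Of 101040 IDs, 64330 passed filterByExpr of edgeR 4.0.16 in R 4.3.3. Genes that failed held at most 0.191% of the counts of a library. The quasi-likelihood test (TMM, robust, 1 coefficient per group over 17 libraries, two-sided) was adjusted by Benjamini-Hochberg over all tested genes. All 6 groups share the estimate of spread, and the SE is the absolute log2 fold change divided by the square root of F. The series design calls the replicates biological, and no label says which plants they came from, so p-values measure the spread between these samples. Heat-only replicates 2 and 3 were the pair closest to counting error alone, with a chi-square per degree of freedom of 1.71. Heat-only replicate 1 stood at 29.5 and 27.7 against them, and the day 0 pairs at 2.1, 2.71 and 3.16. If some samples share a culture or plant, p-values understate the spread between independent cultures, which was not tested. Intervals and 3-count levels cover counting error or replicate spread, not errors of a whole group. The test was first run on simulated counts in which few genes changed, by small sizes and equally in both directions. That run does not bear on the scaling under changes as wide as those found here. Alternatives were other scalings, filters and sample sets, DESeq2 1.42.0, limma-voom (limma 3.58.1), glmTreat, a replicate block and leaving out single libraries.

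Genes were named by rule: the 8 largest changes per direction (at least 50 CPM in the higher group, 10 counts in the lower, no overlap), the 5 most abundant per group, and IDs with another name in assembly Da-Ae, which listed 3347 IDs. Of these 2 per direction, the most abundant of each group, 1 other abundant gene of day 0 whose call depended on the setting, and both named IDs are printed. Gene lists by description and promoter motifs were not analysed here. The comparison, lists and rules were chosen with earlier results of these data known. The limits of the chromosome windows, the other switch limits and the fits with replicate 1 as the only cultured library were chosen after seeing the data.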

Additional observations from a re-analysis of the deposited data

How the results depend on the processing

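The count of called genes was 36294, and ranged from 35800 to 40437 under the other scalings, filter and tests on all 17 libraries, apart from glmTreat against 1 log2 unit. It was 35743 with the 6 libraries alone. glmTreat called 18399 genes, 11948 higher and 6451 lower. With library totals alone 12721 genes were higher and 27716 lower, and 411 were switched off. Of the main calls, 80.0% were called in the same direction under library totals and 97.9% under RLE factors. Leaving out 1 library at a time gave 30799 to 35088 calls, 17317 to 19717 higher and 13296 to 16210 lower, with 2485 to 2786 switched on and 186 to 223 off. With heat-only replicate 1 as the only cultured library, chosen after seeing the data, 10016 genes were lower and 357 switched off, and its spread was taken from the other groups. Limits of 0.2 and 0.05 CPM gave 518 and 79 genes switched off. The difference in A share ranged from -1.52 to -1.04 percentage points without single libraries, and was -0.46 (exact permutation p = 0.4) without the 10 most abundant genes of each library.

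Deviations of same-numbered libraries from their group means correlated at 0.026, -0.016 and 0.008 across all tested genes. Counting error in genes of low level weakens such correlations, so they do not settle whether the numbers pair the samples. With the replicate block the count was 36131 over 17 libraries and 34854 over the 6 compared. In the block fit of 6 libraries TR1 rose by 0.48 log2 units (adjusted p = 0.037, edgeR). Of 475 gene and setting pairs over 28 genes named by rule, 462 kept direction and side of the threshold, 10 lost the call, 2 gained it and 1 turned, which was TR1 under library totals at -0.31. No alternative was run for gene descriptions or promoter motifs. Depth limits values near 0.1 CPM, above all in day 0 replicate 3.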
